A study of Homo sapiens with 4 samples.

Results

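The ZNF genes are the numbered human zinc finger genes, the largest group of genes for DNA-binding proteins. Members were every gene whose symbol is ZNF followed by a number, antisense names left out, that reached 3 FPKM or more in at least 1 of 4 RNA sequencing libraries of MCF10A cells. FPKM is the number of sequenced fragments scaled to transcript length and library size. This gave 211 members of 535 numbered ZNF genes in the tables, and 9864 genes of 25317 gene symbols reached the same level. The members were chosen by their FPKM in the same libraries that are compared here, so the values below are a description and carry no test.

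A C2H2 zinc finger is a short fold in which a pair of cysteines and a pair of histidines hold a zinc ion, and rows of such fingers read DNA base by base. Many human ZNF proteins join their fingers to a KRAB domain, which recruits the corepressor TRIM28 and through it the histone methyltransferase SETDB1 and HP1 proteins, and KRAB proteins are known for silencing transposable elements. A large part of the KRAB genes lies in clusters on chromosome 19 that arose by repeated duplication. A SCAN domain, found in fewer members, pairs ZNF proteins with each other.

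MCF10A is an established, non-tumour line of human mammary epithelium. All 4 cultures received a lentivirus of the pHIV-ZsGreen type, which also makes a green fluorescent protein, and green cells were sorted 6 days later. The 4 groups were the empty vector, Zeb1, Snail and Ovol2. Zeb1 and Snail are repressors that bind the E-box and drive epithelial-to-mesenchymal transition, and Ovol2 is a zinc finger factor known for holding cells epithelial. The labels name neither the species of the delivered factors nor the number of cells sorted. Each group held 1 library, so no spread between cultures could be measured. Cells that differ in number within the sort and cells that differ in RNA content cannot be told apart in such bulk RNA.

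The libraries carried their labels. ZEB1 stood at 17.3 FPKM in the Zeb1 library against 0.536 or less in the others, SNAI1 at 99.7 in the Snail library against 0.725 or less, and OVOL2 at 78.3 in the Ovol2 library against 6.32 or less. All 10 basal mammary markers reached 1 FPKM in each library, 3 or 4 of 6 luminal markers did, and no immune, neural or muscle marker did, while 1 of 3 endothelial markers reached 1.29 FPKM in the Ovol2 library. The basal markers differed in level, with a summed 9872 FPKM with the empty vector, 2694 with Zeb1, 8082 with Snail and 5464 with Ovol2. KRT17 made up most of each sum, at 5736, 1571, 4972 and 4624 FPKM in that order, so the sums do not stand for each marker. KRT5, a keratin of basal cells, read 2929, 771, 2022 and 215 FPKM. With Ovol2 LAMA3 went from 98.5 to 3.53 FPKM, while KRT6A went only from 560 to 474. With Snail LAMA3 (137 FPKM) and KRT14 (204 against 195) stood above the control and the other basal markers below it. The part of these shifts in the members' values was not tested. The steps between the lowest values put the depth of the Zeb1, Snail and Ovol2 libraries at 1.18, 1.09 and 0.83 times that of the empty vector library, which held about 29900000 fragments. At that depth the median member rested on about 480 fragments in the empty vector library and about 222 in the Ovol2 library, and the lowest on about 101 and 27.1. The non-coding RNAs RMRP and RPPH1 took 24.6% of the summed FPKM with the empty vector, 22.1% with Zeb1, 18.7% with Snail and 40.6% with Ovol2. Their part in the members' values was not tested, and the closing section gives the values scaled without them.

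Coding frames from GENCODE 29 were found for 207 of the 211 members, and the remaining 4 (ZNF252P, ZNF271P, ZNF37BP and ZNF767P) are transcribed pseudogenes. A KRAB box was found in 122 members, a SCAN domain in 13 and both in 8. Of all members 88 lay on chromosome 19, among them 72 of the KRAB members. The number of C2H2 fingers per protein had a median of 10 and ran from 0 to 33, with 33 in ZNF462 and 31 in ZNF91. No finger of the pattern searched was found in 8 members, ZNF185, ZNF330, ZNF395, ZNF503, ZNF608, ZNF609, ZNF750 and ZNF862.

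The coding DNA of the first finger shows what most members share and where fragment assignment is uncertain. The letters are from GENCODE 29, read 5′ to 3′, with the codons of the 2 cysteines and 2 histidines in capitals. ZNF146 consists of little more than fingers, ZNF25 is a KRAB gene higher with Zeb1, ZNF281 is a member lower with Ovol2, and ZNF593 holds a single, longer finger. ZNF33A and ZNF33B are a near-identical pair.
ZNF146: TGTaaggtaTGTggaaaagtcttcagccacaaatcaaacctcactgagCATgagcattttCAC
ZNF25: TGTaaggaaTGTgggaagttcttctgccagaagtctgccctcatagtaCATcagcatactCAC
ZNF281: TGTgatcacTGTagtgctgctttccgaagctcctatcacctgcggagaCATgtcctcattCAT
ZNF593: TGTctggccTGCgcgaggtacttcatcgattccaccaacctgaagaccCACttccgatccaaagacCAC
ZNF33A: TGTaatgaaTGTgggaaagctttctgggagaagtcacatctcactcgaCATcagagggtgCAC
ZNF33B: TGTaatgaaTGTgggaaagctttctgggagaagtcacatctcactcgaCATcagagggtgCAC
The ZNF33A and ZNF33B stretches differed at 0 of 63 bases, and the whole coding sequences were 96.3% identical over 2331 bases. ZNF302 and ZNF181 differed at 1 of 63 bases in their first finger and were 95.6% identical over 826 bases. Of the members 7 had such a near-identical copy (95% or more over at least 300 bases) in another ZNF gene, namely ZNF181, ZNF302, ZNF33A, ZNF33B, ZNF286A, ZNF419 and ZNF587. Their values depend on how fragments were shared between copies. Another 8 members have an antisense gene named after them, and no label gives the strand setting of the counting, so sense and antisense fragments may be mixed there.

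ZNF genes were transcribed at low levels. In the empty vector library the median member stood at 4.19 FPKM, the lowest at 0.829 and the highest, ZNF207, at 56.5. The medians in the Zeb1, Snail and Ovol2 libraries were 4.97, 5.07 and 2.01 FPKM. Members that reached 3 FPKM numbered 157 with the empty vector, 194 with Zeb1, 190 with Snail and 61 with Ovol2. Summed over the 211 members, the level was 1198 FPKM with the empty vector, 1329 with Zeb1, 1453 with Snail and 776 with Ovol2. The whole group was therefore lowest in the Ovol2 library. As a share of all FPKM outside RMRP and RPPH1 the members held 0.424%, 0.587%, 0.50% and 0.235%.

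The threshold of 3 FPKM fell within a continuous run of levels. Just inside it were ZNF236 at 3.04 FPKM in its highest library, ZNF621 at 3.05, ZNF41 at 3.06, ZNF333 at 3.07 and ZNF316 at 3.08. Just outside were ZNF182 at 2.999, ZNF324B at 2.996, ZNF613 at 2.995, ZNF204P at 2.955 and ZNF417 at 2.94. Among the 324 numbered ZNF genes below the threshold, 146 reached 1 FPKM in some library, 168 stayed above 0 but under 1, and 10 were listed at 0 in all 4.

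Differences are given as log2 ratios, in which 1 FPKM was added to both the factor and the control value, a scale that understates differences of low genes. A member is called higher or lower at a 2-fold difference on this scale. All 3 comparisons use the same empty vector library, so its own deviations enter each of them.

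**Figure D1:**
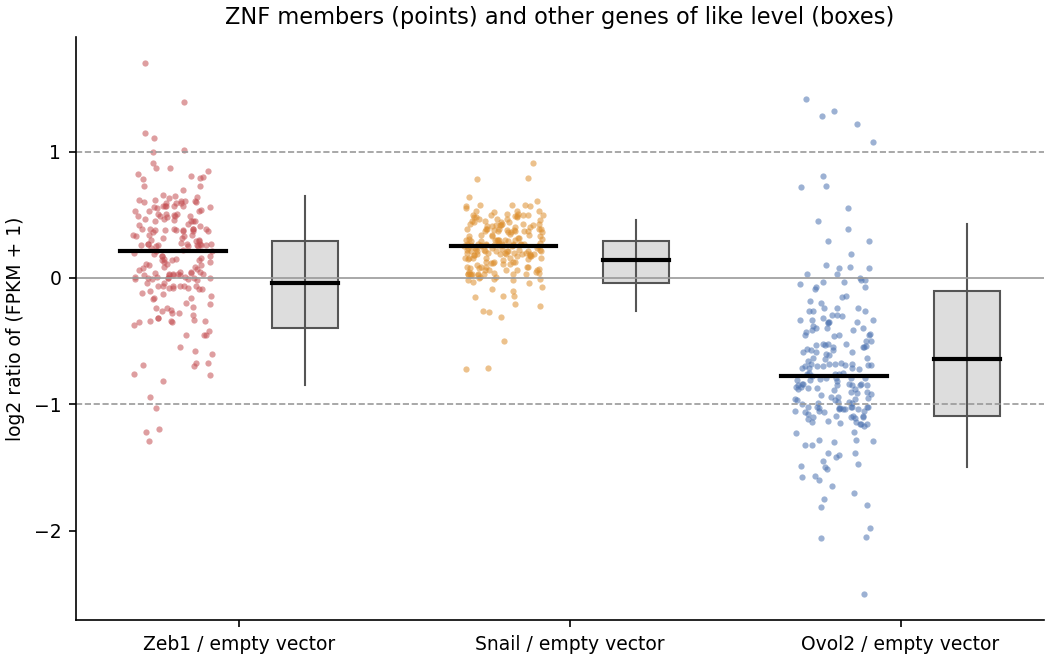
Log2 ratio of FPKM + 1 to the empty vector library for each of the 211 members (points, black bar at the median) beside the 4879 other genes of like level (box from the 25th to the 75th percentile, bar at the median, line from the 10th to the 90th percentile). Dashed lines mark 2-fold. The members' median lies at 0.21 with Zeb1, 0.25 with Snail and -0.78 with Ovol2, against -0.04, 0.14 and -0.64 for the other genes.

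With Zeb1, as deposited, the median ZNF member lay above the control while the median of all genes lay below it. The median member was at a log2 ratio of 0.21, against -0.12 for all genes and -0.04 for 4879 other genes of like level (a mean of 2.46 to 10.1 FPKM). Of 211 members 146 (69.2%) lay above 0, where 41.5% of all genes and 46.7% of genes of like level did. Among the 157 members at 3 FPKM in the empty vector library the median was 0.10, against -0.16 for all genes at that level. There 1 was higher and 4 were lower, where 3.03% and 10.4% of all such genes were. Among the 36 members at 10 FPKM in some library the median was -0.02, on the other side of 0. Few of the 211 members passed 2-fold: 5 were higher, where 4.65% of all genes were, and 4 were lower, where 9.57% of all genes were. Among genes of like level 4.24% were higher and 7.05% lower. The members' counts are 2.37% and 1.90% of them, below each of those shares. The Zeb1 library was the highest of the 4 for 92 members (43.6%), for 23.3% of all genes and for 27.3% of genes of like level. The 92 include 16 members that reached 3 FPKM in that library alone and so had to be highest there. The sign of the median of all genes depended on scaling. Centred as described below it was 0.06, against 0.39 for the members. Scaled without RMRP and RPPH1 it was 0.15, against 0.47 for the members, so in both settings all genes also lay above 0 in the median.

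The 5 members higher with Zeb1 were ZNF608 and the KRAB genes ZNF25, ZNF333, ZNF254 and ZNF302. ZNF608, for which no C2H2 finger was found, stood at 6.38 FPKM with the empty vector, 23.0 with Zeb1, 7.33 with Snail and 0.302 with Ovol2. It had the highest log2 ratio of all members with Zeb1, 1.70, and the lowest with Ovol2, -2.50. ZNF25 read 1.38 FPKM with the empty vector, 5.23 with Zeb1, 1.86 with Snail and 0.466 with Ovol2, a log2 ratio of 1.39 with Zeb1. ZNF333 went from 0.829 to 3.07 FPKM, ZNF254 from 1.76 to 4.96 and ZNF302 from 2.22 to 5.47, with log2 ratios of 1.15, 1.11 and 1.01. All 4 KRAB genes were thus below 3 FPKM in the empty vector library, and ZNF25 and ZNF333 reached that level only with Zeb1. In all, 16 members reached 3 FPKM in the Zeb1 library alone, and such members had to be higher there.

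The 4 members lower with Zeb1 had no KRAB box. ZNF185, a LIM domain protein of the actin cytoskeleton and a zinc finger gene by name rather than by C2H2 fingers, read 7.18 FPKM with the empty vector, 2.34 with Zeb1, 7.37 with Snail and 21.0 with Ovol2. ZNF593, whose yeast counterpart acts in export of the large ribosomal subunit, read 19.2 FPKM with the empty vector, 8.93 with Zeb1, 18.9 with Snail and 49.5 with Ovol2. Both were thus low with Zeb1, close to the control with Snail and high with Ovol2. ZNF219 read 15.1, 5.89, 8.77 and 7.80 FPKM in the same order and was lower in all 3 factor libraries. ZNF165, a SCAN gene known as a cancer-testis antigen, read 3.28, 0.864, 2.03 and 2.88 FPKM. The log2 ratios with Zeb1 were -1.29 for ZNF185, -1.22 for ZNF219, -1.20 for ZNF165 and -1.03 for ZNF593.

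**Figure D2:**
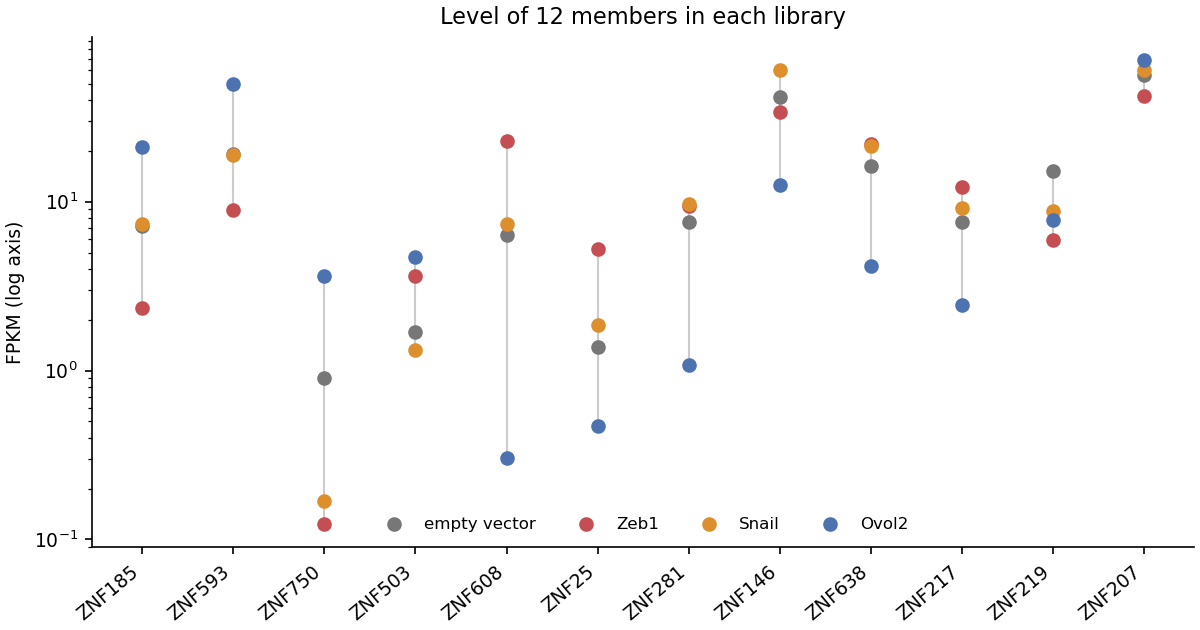
FPKM (log axis) of 12 members in the 4 libraries, 1 point per library. ZNF185, ZNF593 and ZNF750 are highest with Ovol2 and lowest with Zeb1, and ZNF608 runs the other way, from 0.302 FPKM with Ovol2 to 23.0 with Zeb1.

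By domain, KRAB members had a median log2 ratio of 0.29 with Zeb1 (4 higher and 0 lower of 122), and members with no KRAB box one of 0.10 (1 higher and 4 lower of 85). Of all genes 4.65% were higher and 9.57% lower, and the 4 higher KRAB members are 3.28% of the KRAB members, below that share. Among members at 3 FPKM in the empty vector library the medians were 0.17 (0 higher and 0 lower of 78) and 0.07 (1 higher and 4 lower of 76), a smaller gap. Of all genes at that level 3.03% were higher and 10.4% lower. Within the KRAB members those on chromosome 19 had a median of 0.35 (61 of 72 above 0) and those elsewhere 0.13 (30 of 50 above 0). Among all genes 41.5% lay above 0. By finger number the median was 0.01 for 49 members with 1 to 5 fingers, 0.11 for 59 members with 6 to 10 and 0.33 for 91 members with 11 or more. These finger groups also differed in level, with a median of the mean FPKM of 5.8, 4.37 and 3.7. The chromosome and finger groups are given as deposited only, without the limit of 3 FPKM in the empty vector library. The 13 SCAN members had a median of 0.01. ZNF91, a KRAB gene of chromosome 19 known to repress SVA elements, read 2.90 FPKM with the empty vector, 6.32 with Zeb1, 4.57 with Snail and 2.17 with Ovol2. ZNF112, another KRAB gene of that chromosome, read 2.48, 5.27, 3.97 and 0.857 FPKM. These differences between groups of members are descriptions of 1 pair of libraries. Corrected for transcript length as described below, the KRAB median was 0.31 and that of members with no KRAB box 0.13, and at 3 FPKM in the empty vector library they were 0.11 and 0.13, with no gap in that direction.

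With Snail, the shift was small and lay in the same direction as that of all genes. The median log2 ratio was 0.25, against 0.13 for all genes and 0.14 for genes of like level, and 191 members (90.5%) lay above 0, where 69.4% of all genes and 70.4% of genes of like level did. Centred as described below, 157 members (74.4%) lay above 0 and 51.4% of all genes, and corrected for length 137 members (64.9%) and 49.9%. No member passed 2-fold, where 1.12% of all genes were higher and 1.52% lower, and 0.922% and 1.17% of genes of like level. The Snail library was the highest of the 4 for 95 members (45.0%), for 39.9% of all genes and for 40.8% of genes of like level. The 95 include 9 members that reached 3 FPKM in that library alone and so had to be highest there. The values with Snail also had the narrowest spread of the 3 factors, from -0.72 to 0.91. KRAB members had a median of 0.26 (118 of 122 above 0) and members with no KRAB box 0.19.

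The extremes with Snail were modest. ZNF302 read 5.07 FPKM against 2.22 with the empty vector, a log2 ratio of 0.91. ZNF33B read 8.71 against 4.62, and its near-identical partner ZNF33A 7.78 against 4.90. ZNF354A, a KRAB gene, read 5.67 FPKM with the empty vector, 10.6 with Zeb1, 10.4 with Snail and 2.41 with Ovol2, so that it was high in both libraries with a mesenchymal factor and low with Ovol2. At the other end ZNF219 had a log2 ratio of -0.72, and ZNF750 one of -0.71 from 0.908 to 0.168 FPKM.

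With Ovol2, most ZNF members were lower, in step with genes of their level. The median log2 ratio was -0.78, against -0.53 for all genes and -0.64 for genes of like level. Below 0 lay 191 of 211 members, and by those medians most of all genes and of genes of like level did too. Lower by 2-fold were 65 members, 30.8% of them, where 27.6% of all genes and 29.6% of genes of like level were. Higher by 2-fold were 5 members, where 6.86% of all genes and 3.81% of genes of like level were. The members' share of lower calls was thus near the background. The Ovol2 library was the lowest of the 4 for 180 members (85.3%), for 59.0% of all genes and for 66.6% of genes of like level. It was the highest for 14 members (6.64%), for 23.6% of all genes and for 16.3% of genes of like level.

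The 5 members higher with Ovol2 were ZNF185, ZNF593, ZNF750, ZNF524 and ZNF503, and none had a KRAB box. ZNF750, a regulator of late epidermal differentiation that acts below p63, read 0.908 FPKM with the empty vector, 0.123 with Zeb1, 0.168 with Snail and 3.64 with Ovol2. It stood at a low level in each library and was among the members only through the Ovol2 library. ZNF524 read 7.99, 7.49, 7.74 and 19.9 FPKM in that order and was close to the control with Zeb1 and Snail. ZNF503, a corepressor of the NET family, read 1.69, 3.62, 1.33 and 4.68 FPKM and stood above the control with both Zeb1 and Ovol2. Their log2 ratios with Ovol2 were 1.42 for ZNF185, 1.32 for ZNF593, 1.28 for ZNF750, 1.22 for ZNF524 and 1.08 for ZNF503.

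Among the members lower with Ovol2 were several with described roles. ZNF281, a GC-box binding factor, read 7.62 FPKM with the empty vector, 9.40 with Zeb1, 9.72 with Snail and 1.08 with Ovol2. ZNF217, an oncogene amplified in breast cancer, read 7.59, 12.2, 9.19 and 2.43 FPKM. ZNF644, a partner of the histone methyltransferases EHMT1 and EHMT2, read 11.1, 16.8, 17.0 and 2.46 FPKM. As deposited, these members shared an order, with both mesenchymal factors above the control and Ovol2 below it. In each comparison most of all members lay on the same side of the control, so the order is not particular to these genes. After length correction ZNF217 stood at -0.01 with Snail.

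ZNF638, an RNA-binding nuclear protein also known for silencing unintegrated retroviral DNA together with the HUSH complex, read 16.3 FPKM with the empty vector, 22.0 with Zeb1, 21.5 with Snail and 4.15 with Ovol2. All 4 cultures, the empty vector included, had been infected with a lentivirus. ZNF395 read 13.1, 15.9, 16.1 and 2.40 FPKM in that order. ZNF146 read 41.6, 33.8, 60.4 and 12.6 FPKM and was the second most abundant member in the empty vector library. The log2 ratios with Ovol2 were -2.06 for ZNF395, -2.05 for ZNF281, -1.80 for ZNF644, -1.75 for ZNF638, -1.65 for ZNF146 and -1.32 for ZNF217. Others near that end were the SCAN and KRAB gene ZNF496 (-1.98), ZNF462 (-1.81) and ZNF358 (-1.70).

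A few abundant members stood near or above their control level with Ovol2. ZNF207, a spindle assembly protein and the most abundant member, read 56.5 FPKM with the empty vector, 42.0 with Zeb1, 60.0 with Snail and 69.1 with Ovol2. ZNF581 read 24.4, 27.0, 30.1 and 24.0 FPKM, and ZNF770 read 17.2, 19, 22.8 and 18.3. ZNF410, known for activating the chromatin remodeller gene CHD4, read 16.1, 14.3, 18.1 and 15.4 FPKM, while CHD4 itself read 35.1, 42.5, 43.8 and 10.0. ZNF274, a KRAB factor that binds the ends of ZNF genes, read 4.32, 5.43, 5.06 and 4.21 FPKM and so lay within a narrow range in all 4 libraries.

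With Ovol2, KRAB members had a median log2 ratio of -0.81 (0 higher and 37, or 30.3%, lower of 122). Members with no KRAB box had one of -0.69 (5 higher and 26, or 30.6%, lower of 85). Both shares of lower members were near the 27.6% of all genes, and 6.86% of all genes were higher. After length correction the medians were -0.02 and 0.03. On chromosome 19 the median was -0.68 (1 higher and 21, or 23.9%, lower of 88), and on the other chromosomes -0.84 (4 higher and 44, or 35.8%, lower of 123). The 13 SCAN members had a median of -0.79 with 3 lower. Of the 8 members with no finger found, 3 were higher (ZNF185, ZNF750 and ZNF503) and 4 lower (ZNF608, ZNF395, ZNF609 and ZNF862).

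Set directly against each other, without the empty vector library, Ovol2 and Zeb1 lay further apart, in the median member, than either lay from the control. The median log2 ratio of Ovol2 to Zeb1 was -0.97 over the members, against -0.39 for all genes and -0.56 for genes of like level. Lower by 2-fold in the Ovol2 library were 102 members, 48.3% of them, where 30.3% of all genes and 32.9% of genes of like level were. Higher were 7 members, where 15.6% of all genes and 8.73% of genes of like level were. KRAB members had a median of -1.06 (1 higher and 64 lower of 122) and members with no KRAB box -0.80 (6 higher and 36 lower of 85). These ratios also went with transcript length, described below. Corrected for it, the median of the members was -0.16 and that of genes of like level -0.04. Lower were then 23 members (10.9%), where 14.2% of all genes were, and higher 9 members, where 15.1% were. The KRAB median was -0.28 and that of members with no KRAB box -0.05. Against the control, 3 members passed 2-fold in opposite directions with Zeb1 and Ovol2 (ZNF185, ZNF593 and ZNF608). How many of all genes did so was not counted, so this number does not set the members apart from other genes. After length correction ZNF593 passed it with neither, at -0.24 and 0.98. As deposited, no member passed 2-fold with Snail, so none could pass it in the same direction with all 3 factors.

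**Figure D3:**
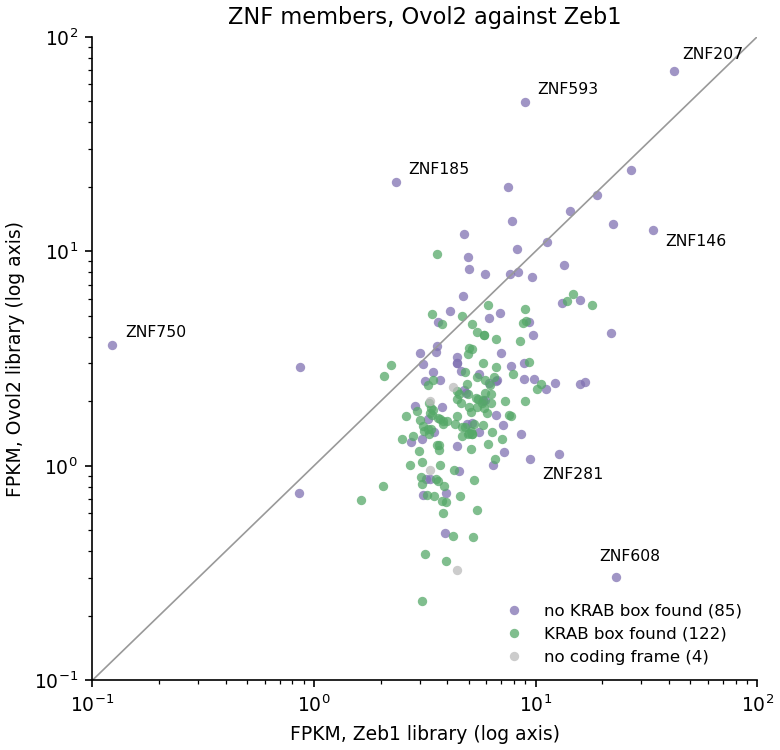
FPKM of each member in the Zeb1 library (horizontal) and the Ovol2 library (vertical), log axes, with the line of equal level. Most members with a KRAB box (122, green) and without one (85, purple) lie below the line, and ZNF185, ZNF593 and ZNF750 lie far above it.

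Transcript length moved with the ratios over all genes. With Ovol2, Spearman's rho between the longest protein-coding transcript and the log2 ratio was -0.46 over the 211 members and -0.48 over 4644 genes of like level, all from the same pair of libraries. With Zeb1 the values were 0.19 and 0.30, and with Snail 0.26 and 0.27. Members were long, with a median of 4130 bases against 3710 for genes of like level. In members of 2000 to 3000 bases the median with Ovol2 was -0.26, against -0.31 for other genes of that length, and in members over 7000 bases it was -1.03 against -1.16. With Zeb1 the same lengths gave 0.10 against -0.21 and 0.29 against 0.24. The part of length in these ratios was not tested.

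**Figure D4:**
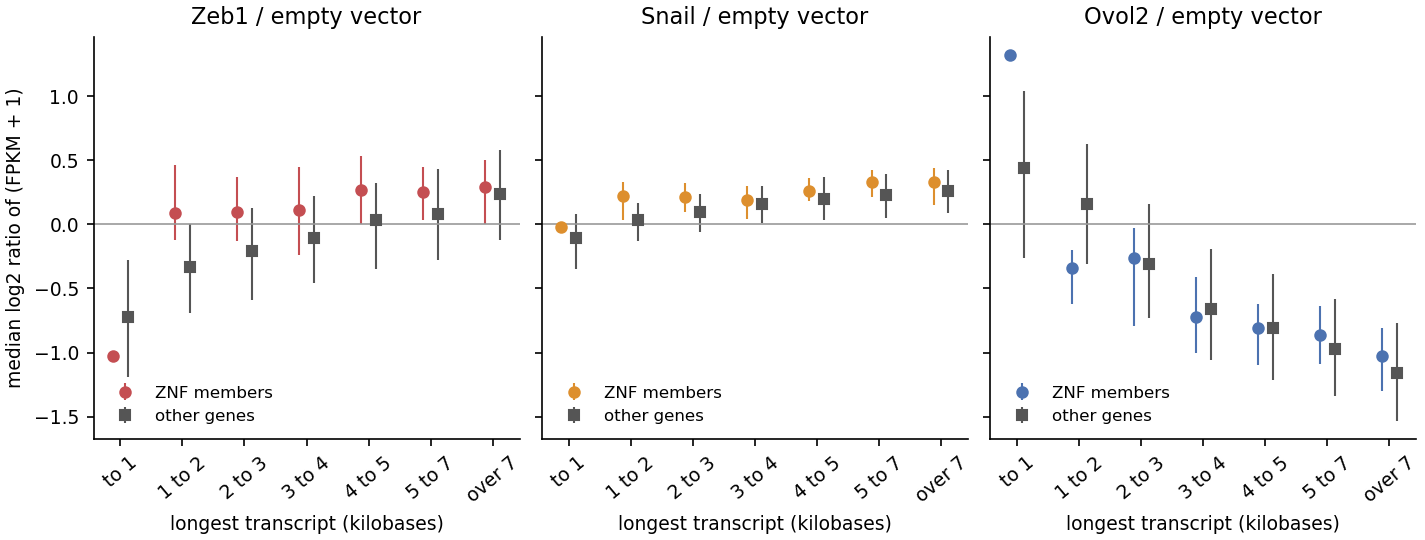
Median log2 ratio of FPKM + 1 to the empty vector library by length of the longest protein-coding transcript, for members (coloured circles) and other genes (grey squares), with lines from the 25th to the 75th percentile; the shortest class holds 1 member. With Ovol2 both sets go down with length, and with Zeb1 members of 1 to 5 kilobases lie above other genes of their length.

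Taking from each gene the median ratio of genes of its length left no Ovol2 shift in the group's median. The members' median was then 0.02, with 8 higher where 9.45% of all genes were and 5 lower where 7.92% were. With Zeb1 the median remained at 0.19, with 6 higher where 5.63% of all genes were and 2 lower where 6.05% were. With Snail it was 0.06, with 0 members beyond 2-fold, where 0.763% of all genes were higher and 1.80% lower. Beyond 2-fold with Ovol2 on this scale were, downward, ZNF358 (-1.71), ZNF608 (-1.53), ZNF395 (-1.14), ZNF281 (-1.13) and ZNF496 (-1.09). Upward they included ZNF185 at 2.22 and ZNF750 at 1.97, and ZNF207 at 1.46, which had been at 0.29 as deposited. The corrected value of ZNF207 rests on its longest transcript, of 13781 bases, and whether the cells made that transcript was not tested. It put ZNF146 at -0.96, ZNF638 at -0.68 and ZNF217 at -0.35, inside 2-fold. ZNF593, at 698 bases the shortest member, came to 0.98 with Ovol2 and -0.24 with Zeb1.

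Centring answered differently for the factors. Setting the median of other genes at 10 FPKM or more in both libraries to 0 moved all log2 ratios by 0.18 with Zeb1, -0.12 with Snail and 0.02 with Ovol2. The members' medians were then 0.39, 0.13 and -0.76, and those of all genes 0.06, 0.01 and -0.51. Counts with Zeb1 became 10 higher, where 6.69% of all genes were, and 3 lower, where 6.44% were. With Snail they stayed at 0, where 0.770% of all genes were higher and 2.02% lower. With Ovol2 they became 5 higher (7.11% of all genes) and 64 lower (26.9%). Setting the genes of like level to 0 left the members at 0.25, 0.12 and -0.14. With Zeb1 it gave 6 higher (5.08% of all genes) and 3 lower (8.85%), with Snail 0 either way (0.760% and 2.05%), and with Ovol2 11 higher (17.4% of all genes) and 9 lower (7.94%).

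Within bins of level, members of 1 to under 2 FPKM had a median of -0.26 with Zeb1 (5 members) against 0.00 for other genes. Members of 2 to under 4 FPKM in the mean of the 4 libraries had a median of 0.25 with Zeb1 (101 members) against -0.02 for other genes. At 4 to under 8 FPKM the values were 0.27 (75 members) and -0.04, and at 8 to under 16 FPKM -0.08 (24 members) and -0.11. With Ovol2 the bins from 2 to under 16 FPKM gave -0.71, -0.85 and -0.88 against -0.65, -0.65 and -0.58. With Zeb1, the 4 members of 16 to under 32 FPKM had a median of 0.14 against -0.22, and the 2 members above that -0.35 against -0.49.

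A list of 37 ZNF genes with described roles, the KRAB genes ZNF91 and ZNF274 among them, held 29 members. With Zeb1 0 were higher and 3 lower, where 4.65% and 9.57% of all genes were. With Snail none passed 2-fold, where 1.12% and 1.52% of all genes did. With Ovol2 4 (13.8%) were higher and 11 (37.9%) lower, where 6.86% and 27.6% of all genes were. After length correction 5 were higher and 2 lower, where 9.45% and 7.92% of all genes were. ZNF598, the ubiquitin ligase of collided ribosomes, read 13.1 FPKM with the empty vector, 7.70 with Zeb1, 11.8 with Snail and 7.80 with Ovol2. ZNF622, an assembly factor of the large ribosomal subunit, read 13, 13.4, 14.9 and 8.59 FPKM. ZNF451, a SUMO ligase, read 4.71, 6.45, 6.28 and 1.01 FPKM. ZNF532 and ZNF687, which share a chromatin complex, read 5.46 and 4.19 FPKM with the empty vector and 1.16 and 2.18 with Ovol2. ZNF148, a GC-box factor related to ZNF281, read 6.24, 9.86, 9.08 and 2.53 FPKM, and ZNF143, a promoter and chromatin loop factor, 4.42, 4.44, 5.36 and 3.21.

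KRAB proteins act through corepressors, of which 25 of 29 listed genes reached 3 FPKM. With Zeb1 and with Snail 0 passed 2-fold, at medians of 0.01 and 0.23. Of all genes 4.65% were higher and 9.57% lower with Zeb1, and 1.12% and 1.52% with Snail. With Ovol2 12 were lower and 0 higher, at a median of -0.98, where 27.6% of all genes were lower and 6.86% higher. TRIM28, the common scaffold, read 88.2 FPKM with the empty vector, 70.3 with Zeb1, 98.1 with Snail and 57.5 with Ovol2, and so did not pass 2-fold in any comparison. SETDB1 read 7.07, 7.09, 9.07 and 3.21 FPKM. The HP1 gene CBX1 read 17.8, 19.9, 26.9 and 4.48, and CBX5 6.71, 10.4, 9.70 and 1.33. CHD3, a NuRD remodeller, had the lowest log2 ratio with Ovol2, -2.04. The HUSH complex gene FAM208A (-1.84) and the histone chaperone gene ATRX (-1.82) followed. After length correction 1 corepressor gene was lower with Ovol2, where 7.92% of all genes were, and the median was -0.22.

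**Figure D5:**
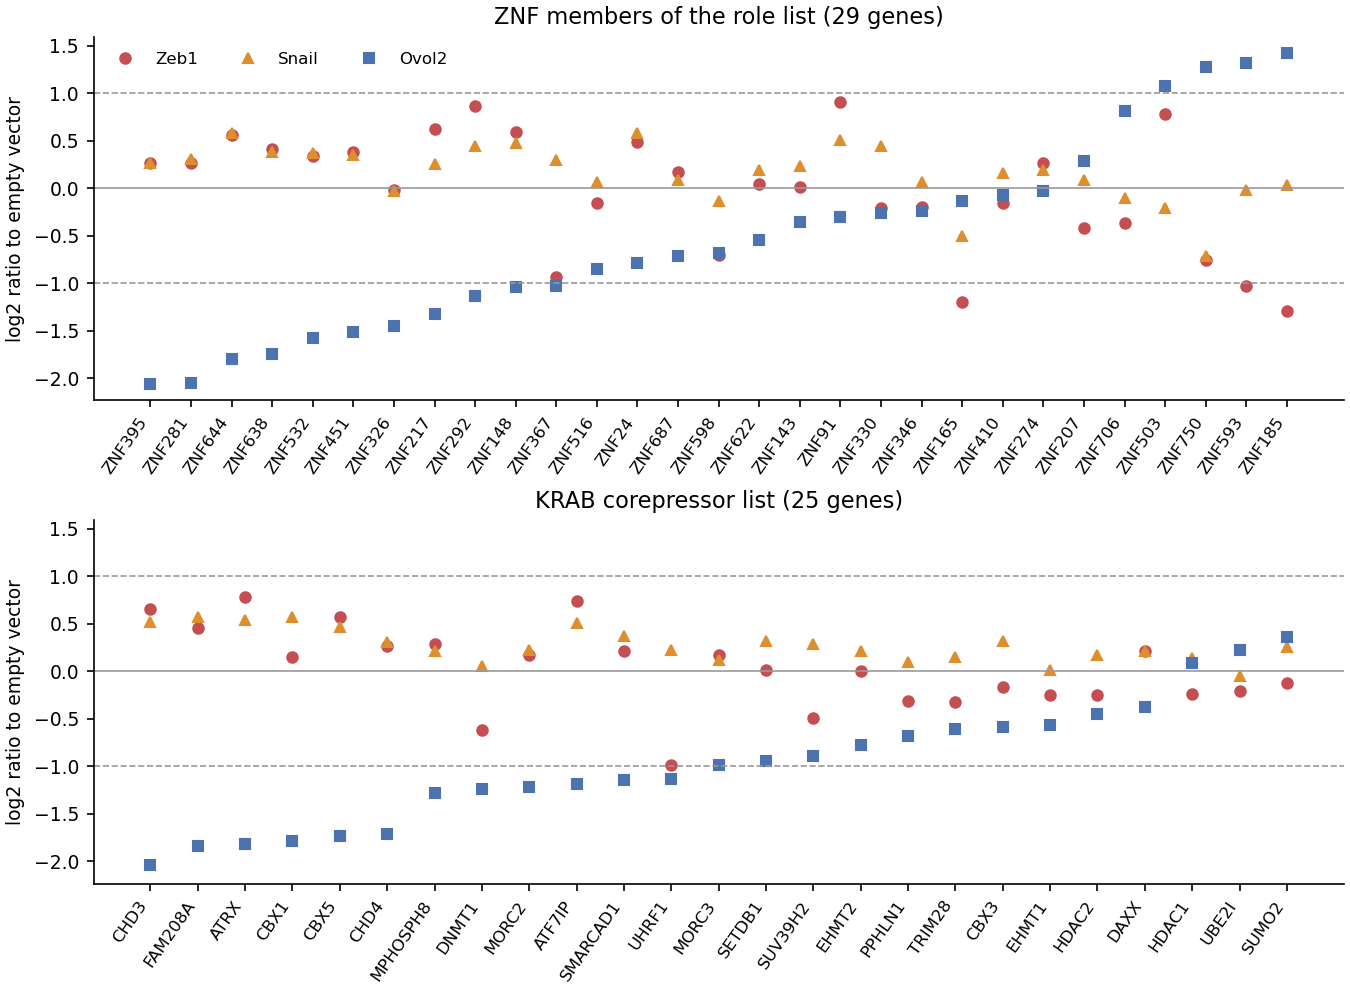
Log2 ratio of FPKM + 1 to the empty vector library for the 29 members of the role list (upper) and 25 corepressor genes (lower), ordered by the Ovol2 value; dashed lines mark 2-fold. With Ovol2 11 role genes and 12 corepressor genes lie at or below -1, where 27.6% of all genes do. No corepressor gene passes 2-fold with Zeb1 (4.65% of all genes higher, 9.57% lower) or Snail (1.12% and 1.52%).

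Zinc finger genes with other names were set beside the members. Among 57 genes of the ZBTB, ZSCAN, ZKSCAN, ZFP and KLF series, which also carry C2H2 fingers, the medians were 0.27 with Zeb1, 0.26 with Snail and -0.99 with Ovol2. Among 48 genes of 5 series with other kinds of finger (ZC3H, ZCCHC, ZDHHC, ZMYM and ZMYND) they were 0.00, 0.22 and -0.71. With Ovol2 28 of the 57 (49.1%) and 18 of the 48 (37.5%) were lower by 2-fold, where 27.6% of all genes were. After length correction, which 57 and 45 of them allowed, 3 and 1 were lower, where 7.92% of all genes were. The medians were then -0.24 and -0.05. The KLF genes had medians of -0.32 with Zeb1 and -1.34 with Ovol2 (7 of 10 lower, and 1 after length correction), and the 28 ZBTB genes 0.28 and -0.99.

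Promoter windows of RefSeq (GRCh38.p14, 250 bases before to 50 after each start) were found for 185 members, 243 windows in all. The E-box CACCTG, the site of ZEB1 and SNAI1, was present on either strand in 38 member windows (15.6%), in 18.0% of windows of all genes at 3 FPKM and in 20.6% of all windows. CCGTTA, a core read by OVOL factors, was present in 9 member windows (3.70%), 4.08% and 3.07%. The motifs share no stretch that would make a match to one a match to the other. In windows of members lower with Ovol2, CACCTG was in 10 of 76 (13.2%) and CCGTTA in 5 of 76 (6.58%). CACCTG was in 2 of 6 windows of members lower with Zeb1 and 2 of 7 of members higher with Ovol2. Both counts are the overlapping ZNF185 windows described below. It was in 0 of 7 windows of members higher with Zeb1, a set taken after rounding that adds ZNF358. CCGTTA was in none of the windows of these last sets.

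ZNF185 is shown because it was lower with Zeb1 and higher with Ovol2 and because CACCTG occurs in its promoter windows. Of its 4 windows 2 held it, but these start 10 bases apart and hold the same pair of matches. ZNF175 is shown beside it as a KRAB gene lower with Ovol2 (2.31 to 0.60 FPKM) with a pair of CCGTTA matches. Its log2 ratio with Ovol2 was -1.05 as deposited and 0.02 after length correction. The ZNF185 stretch is chrX:152914182-152914431 on the plus strand, with CACCTG matches that begin 191 and 45 bases before the start, and the ZNF175 stretch is chr19:51571033-51571282 on the plus strand, with matches 127 and 38 bases before it. Capitals mark the matches on either strand.
ZNF185: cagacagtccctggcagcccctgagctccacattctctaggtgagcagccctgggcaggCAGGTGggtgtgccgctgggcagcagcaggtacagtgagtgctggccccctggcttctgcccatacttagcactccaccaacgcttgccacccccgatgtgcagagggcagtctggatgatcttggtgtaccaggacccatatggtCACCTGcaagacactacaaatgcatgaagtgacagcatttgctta
ZNF175: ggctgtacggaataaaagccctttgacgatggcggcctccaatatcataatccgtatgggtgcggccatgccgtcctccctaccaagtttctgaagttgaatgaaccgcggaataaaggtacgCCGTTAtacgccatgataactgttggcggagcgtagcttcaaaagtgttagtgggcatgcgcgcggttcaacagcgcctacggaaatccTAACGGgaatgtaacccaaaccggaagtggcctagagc
A match is a string of letters in a window and does not show binding.

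The authors' deposited tables give an adjusted p-value for each gene from 1 library against 1 library. It lay below 0.05 for 193 members with Zeb1 (91.5%), 198 with Snail (93.8%) and 208 with Ovol2 (98.6%), and for 92.3%, 86.5% and 94.3% of all genes at the same level. Those values do not measure the spread between cultures, and no member was named from them.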

How the data were processed

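Messenger RNA was measured in 4 libraries of MCF10A cells, 1 per group. Per the submitters' processing notes, TopHat, Cufflinks, Cuffdiff and the hg19 build were used by the authors. Versions, annotation and strand setting are not given in the sources used here. Expression values as deposited were read as FPKM, a unit that no column header states. Per the file headers, the authors also deposited a Benjamini-Hochberg adjusted p-value per gene. All 3 tables carry identical empty vector values. Rows with a repeated symbol (43) were added together.

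Ratios were the log2 of FPKM + 1 over FPKM + 1, with 2-fold as the limit and no test, since each group holds 1 library. Depth was read from the steps between the lowest values. Lengths, coding frames (longest open frame) and domains came from GENCODE 29, in place of RefSeq proteins as first planned. KRAB boxes needed 12 residues of a consensus and SCAN domains 30 of 47, and fingers the pattern of 2 cysteines and 2 histidines. Lengths of 95.7% of genes were matched. Length correction took the median of 20 length bins. Near-identical copies were found with blastn 2.17.0. Other steps used Python 3.11.15, pandas 2.3.3 and scipy 1.17.1. Ratios, centring and calls of the same form were tried on simulated data with changes larger than 2-fold. Centring there used another set of genes, and the length correction was not tried.

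Named members were the 8 highest and 8 lowest per comparison at 5 FPKM or more in either library, the 6 most abundant, the role list and members opposed between Zeb1 and Ovol2. ZNF333 and ZNF254, ZNF175, ZNF181, ZNF286A, ZNF419, ZNF587, ZNF609, ZNF862 and the pseudogenes were named after their values were seen. Members and lists were chosen with earlier results of these data known.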

Additional observations from a re-analysis of the deposited data

How the results depend on the processing

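No paired analysis was possible because each group holds 1 library, and leaving out a replicate was not possible for the same reason. Depth limits the lowest members most, such as ZNF750 at 0.123 FPKM with Zeb1. Counts in this section stand without the share of all genes. A change of scaling, pseudocount or fold limit also moves that share, so these counts alone do not set the members apart from other genes. The longest transcript replaced the median transcript in the length correction after the data were seen, because short partial transcripts gave long genes a low median.

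Under length correction, 31 of the 159 ratios of named members changed sign, 14 of them with Ovol2, 12 with Snail and 5 with Zeb1. Of these, 2 had passed 2-fold as deposited, ZNF292 (0.05) and ZNF148 (0.14) with Ovol2. Another 15 that had passed 2-fold fell inside it without changing sign, and 3 came to pass it. Sign also changed for 21 ratios under upper quartile scaling, 12 when centred, 10 without RMRP and RPPH1 and 0 with a pseudocount of 0.1 FPKM.

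With Zeb1, a pseudocount of 0.1 FPKM gave 12 higher. Centring gave 10 higher and a median of 0.39, and scaling without RMRP and RPPH1 gave 15 higher, 2 lower and 0.47. The medians of all genes were then 0.06 and 0.15. Among 36 members at 10 FPKM in some library, 1 was higher and the median was -0.02, the reverse of the direction over all members. Without a filter (535 genes) the median was 0.08. Among the 157 members at 3 FPKM in the empty vector library 1 was higher and the median was 0.10, so 4 of the 5 higher members were not at that level in the control. Length correction gave 2 lower, and with the median transcript 9 higher. At 1.5-fold 32 were higher and 13 lower, and by the authors' deposited adjusted p-value 135 and 58.

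With Snail, a pseudocount of 0.1 FPKM gave 1 higher and 1 lower. The median was 0.13 when centred, 0.14 under upper quartile scaling, 0.13 without a filter, 0.06 under length correction, 0.08 with the median transcript and 0.12 against genes of like level. That of all genes was 0.01 when centred and 0.01 under upper quartile scaling. At 1.5-fold 5 were higher and 2 lower, and by the authors' deposited adjusted p-value 182 and 16.

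With Ovol2, a pseudocount of 0.1 FPKM gave 105 lower and a median of -1.0. Upper quartile scaling, which moved all ratios by 0.46, gave 9 higher, 23 lower and -0.39, and scaling without RMRP and RPPH1 gave a median of -0.92. The medians of all genes were then -0.08 and -0.7. The members' median was -0.59 at 1 FPKM (357 genes), -0.35 without a filter, and -0.93 at 10 FPKM with 3 higher and 15 lower of 36. At 3 FPKM in the empty vector library 3 were higher. Length correction gave 8 higher, 5 lower and a median of 0.02, the reverse of the direction as deposited, and the median transcript gave 9 lower and -0.02. Against genes of like level 11 were higher and 9 lower at -0.14. At 1.5-fold 8 were higher and 135 lower, and by the authors' deposited adjusted p-value 20 and 188.

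Added after the data were seen, length correction of the ratios of Ovol2 to Zeb1 gave 23 lower and a median of -0.16. Added likewise, the limit of 3 FPKM in the empty vector library gave KRAB members 0 higher and a median of 0.17 with Zeb1.

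The cause of these shifts was not tested. Alternatives not printed here kept the counts within 1.5 times and the medians' direction.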

Other observations

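Antisense genes named after ZNF genes were left out of the members, and none of the 28 reached 3 FPKM in any library. ZNF436-AS1 read 0.221 FPKM with the empty vector, 1.36 with Zeb1, 0.791 with Snail and 0.275 with Ovol2. ZNF529-AS1 read 0.892, 2.05, 1.30 and 1.04 FPKM in that order, and ZNF561-AS1 read 1.21, 1.20, 0.936 and 2.35, highest with Ovol2.

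The 8 genes of the role list below 3 FPKM were ZNF592, ZNF827, ZNF703, ZNF423, ZNF521, ZNF365, ZNF469 and ZNF385A. ZNF592, a partner of ZNF532 and ZNF687, read 2.43 FPKM with the empty vector, 2.88 with Zeb1, 2.52 with Snail and 1.01 with Ovol2. ZNF385A, a partner of p53, read 0.526, 0.364, 0.296 and 1.75 FPKM, highest with Ovol2. ZNF703, an oncogene of luminal breast cancer, stayed at or below 0.540 FPKM in each library, and ZNF423 and ZNF469 were listed at 0 with the empty vector.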
